A study of Mus musculus with 16 samples.

Results

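The comparison described here set CD45+ bone marrow cells of IACS-70654-treated mice that carried 2208L tumors against those of WT mice without a tumor. It used 4 of the 16 samples of the series, 2 libraries per group, chosen by their labels, and 19992 of the 73176 cells kept over the whole series. The WT group, labelled ctrl, was BALB/c mice that carried no tumor and received nothing. The IACS-70654 group was BALB/c mice bearing 2208L, a transplanted Trp53-null mammary tumor, and dosed orally with IACS-70654, an inhibitor of the bromodomains of the acetyltransferases CBP and P300. The record and the study give different lengths of treatment for this marrow, so none is given here. All libraries held marrow of tibia and femur, sorted as CD45+, Ter119- and DAPI- cells and profiled by 3′ droplet RNA-seq. The record gives pools of 3 mice per treatment group and the study's methods give them per sample, and neither says whether the 2 libraries of a group came from separate mice, so p values measure only the spread between these libraries, which may be technical. Tumor and treatment both differed between the groups, and the contrast cannot tell them apart. The 2 vehicle libraries of tumor-bearing mice that received vehicle are therefore given beside the main values, without a test, and entered no fit named below unless stated.

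CBP and P300 place acetyl marks on histones at enhancers and promoters, and their bromodomains bind acetylated lysines. Neutrophils arise in marrow from dividing proNeu and preNeu, which fill azurophil granules and then secondary granules, and then pass through a non-dividing immature stage to mature cells that express Cxcr2. Mammary tumors of this kind are known to expand neutrophil production. Stefins are small cytosolic inhibitors of cysteine cathepsins, and mouse neutrophils express a cluster of stefin A copies.

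The kept cells numbered 4579 and 4394 in WT and 4865 and 6154 in IACS-70654. No cell barcode was shared between libraries. The study tagged cell suspensions with CellPlex oligos and split samples by tag, so samples of the same droplet run could not share a barcode. The lack of shared barcodes therefore does not show that the libraries were prepared apart. Depth differed with the group. Median UMIs per cell were 4113 and 4276.5 in WT and 6534 and 6596.5 in IACS-70654, with vehicle at 5330.5 and 5328. Total UMIs over the 6 CD45+ libraries ranged from 27816638 to 54510172. Within mature neutrophils the median was 2820 and 2835 UMIs in WT and 3964 and 3873 in IACS-70654, so levels are given as CPM (counts scaled to the same total per class) and the part of depth in those levels was not tested. Shares set by UMIs per cell are given with and without thinning to 1 depth. Summed markers of tumor epithelium reached at most 4.375 CPM in any library, those of stroma or endothelium 54.84 CPM and those of erythroid cells 101.8 CPM.

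The treated marrow did not have the cell makeup of WT marrow. Neutrophils, monocytes, plasmacytoid dendritic cells (pDCs), B precursors, Ighd-expressing B cells, T and NK cells and basophils all differed in share from WT when cell numbers were tested over libraries (edgeR quasi-likelihood test, Benjamini-Hochberg over 7 classes, adjusted p under 0.05). Neutrophils of all stages made up 66.94% and 64.57% of WT cells, 81.89% and 83.29% of vehicle cells and 76.73% and 76.89% of IACS-70654 cells. The treated libraries lay above both WT libraries and below both vehicle libraries, and the share was 1.168-fold that of WT (log2 difference 0.22 ± 0.04 SE, edgeR adjusted p = 4.113e-05). An unnamed low-depth cluster led by Il1b stayed outside this share. It held 1.38% and 1.64% of WT, 6.12% and 5.75% of vehicle and 5.96% and 5.75% of IACS-70654 cells. Among neutrophils, monocytes and pDCs alone the neutrophil difference was only 0.0057 on the log2 scale and was not called (edgeR adjusted p = 0.817). Monocytes, the marrow source of blood phagocytes, were 7.97% and 8.88% in WT and 11.22% and 11.23% in IACS-70654, with vehicle at 5.63% and 5.09%. Their treated share lay above WT while the vehicle share lay below it (log2 difference from WT 0.42 ± 0.09 SE, edgeR adjusted p = 4.154e-04).

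Lymphoid and dendritic classes stayed under WT. B precursors, a class named by markers of cells that rearrange their immunoglobulin genes, were 12.67% and 13.45% in WT and 0.349% and 0.406% in IACS-70654, with vehicle at 2.99% and 2.78%. The treated share was 0.0289-fold that of WT and lay below vehicle too (log2 difference -5.09 ± 0.17 SE, edgeR adjusted p = 3.179e-13). Unthinned, 252 and 227 WT B-lineage cells had an Ighd UMI, more than the 116 and 123 WT cells named Ighd B cells. The WT precursor class thus also held cells with Ighd, and their part in the lower share was not tested. Ighd B cells, which are more mature, were 2.53% and 2.80% in WT and 0.617% and 1.202% in IACS-70654, with vehicle at 0.0391% and 0.131%. Their treated libraries lay above vehicle and under WT (log2 difference -1.50 ± 0.21 SE, edgeR adjusted p = 1.341e-05). With clusters at resolution 1, 2 clusters were named Ighd B cells, the second holding 178 and 206 WT, 44 and 41 vehicle and 2 and 3 treated cells, and the log2 difference in the share of Ighd B cells among CD45+ cells was -2.81, so the size of the difference and the place of the treated libraries against vehicle rest on that choice. The call at the resolution used was lost without WT replicate 1 (-1.57, edgeR adjusted p = 0.105) and without WT replicate 2 (-1.42, edgeR adjusted p = 0.124).

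pDCs, the interferon-producing dendritic cells, were 2.71% and 2.94% in WT and 1.62% and 1.48% in IACS-70654, with vehicle at 1.25% and 1.08% (log2 difference -0.87 ± 0.19 SE, edgeR adjusted p = 4.154e-04). T and NK cells were 2.90% and 2.09% in WT and 0.699% and 0.617% in IACS-70654, with vehicle at 0.528% and 0.361% (log2 difference -1.94 ± 0.23 SE, edgeR adjusted p = 3.379e-06). Basophils fell from 0.961% and 1.12% to 0.473% and 0.357%, with vehicle at 0.509% and 0.444% (log2 difference -1.34 ± 0.33 SE, edgeR adjusted p = 0.00117, and 0.0559 without WT replicate 2, where the difference was -1.23). In each of these classes the WT and treated libraries did not overlap. Shares sum to a fixed whole, and with TMM scaling of the cell numbers the pDC, Ighd B cell, T and NK cell and basophil calls were lost, the pDC difference turning to 0.26 (edgeR adjusted p = 0.161). An exact permutation test of 2 against 2 libraries cannot go below p = 0.333, the value it gave for each class.

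**Figure D1:**
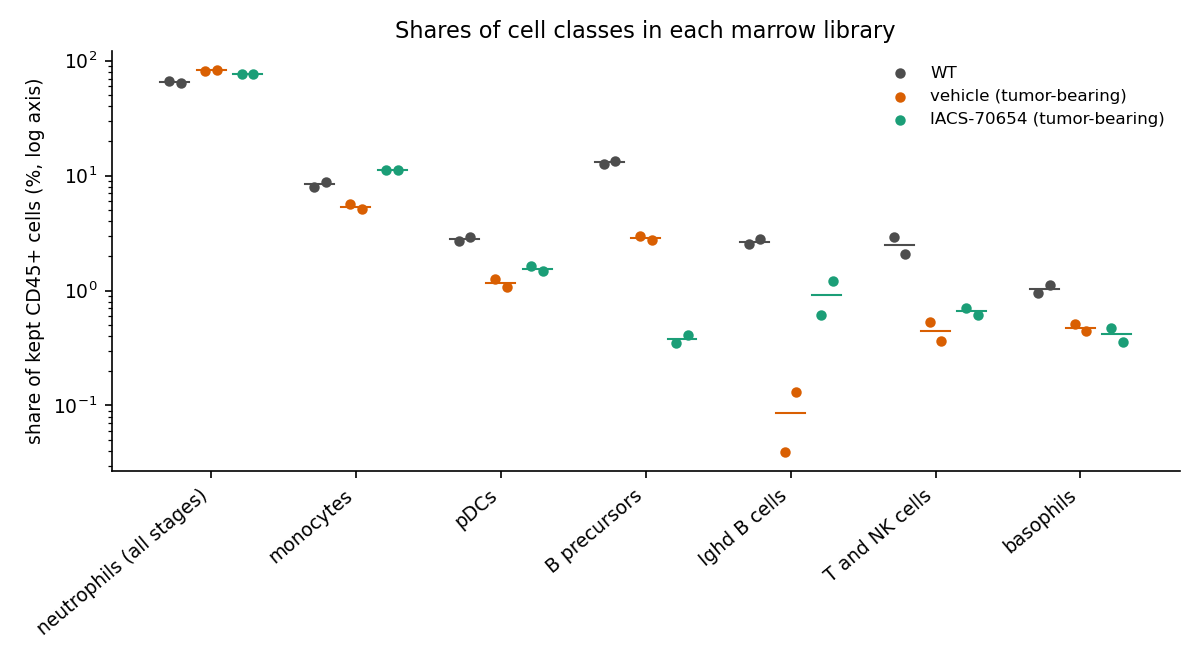
Share of kept CD45+ cells (%, log axis) taken by each of the 7 cell classes in each library, with points for libraries and bars for group means of WT, vehicle and IACS-70654. B precursors show the widest gap, from 12.67% and 13.45% in WT to 0.349% and 0.406% in IACS-70654. Of the 7 classes shown, only monocytes have treated libraries above WT and vehicle below it.

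Shares were also taken by a fixed rule on UMIs in cells thinned to 1000 UMIs. The mix of immature and mature cells among neutrophils past the pro/preNeu stage differed between the groups. The part of that mix in their shares was not tested. Neutrophils past the pro/preNeu stage with at least 2 UMIs of Il1b, a pro-inflammatory cytokine, were 5.02% and 5.30% in WT and 8.69% and 8.61% in IACS-70654, with vehicle at 9.96% and 10.7%. The treated libraries stayed above WT (log2 difference 0.75 ± 0.09 SE, edgeR quasi-likelihood test over 5 rules, adjusted p = 3.394e-05). Without thinning the shares were 11.7% and 11.7% in WT and 24.8% and 25.3% in IACS-70654. B precursors, which should lack Il1b, met the same rule in at most 0.171% of cells in WT, and in 0 of 25 cells of IACS-70654 replicate 2, which allows a share of up to 12% by counting error alone. Ighd B cells met it in 1 of 122 cells of WT replicate 2 (0.820%) and in 2 of 74 cells of IACS-70654 replicate 2 (2.70%). The rule left out an unnamed low-depth cluster led by Il1b, and with that cluster included the shares were 6.81% and 7.60% in WT and 14.5% and 14.2% in IACS-70654, with vehicle at 15.7% and 15.8%.

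Thbs1 encodes the secreted matrix protein thrombospondin 1, and its share was also taken over neutrophils past the pro/preNeu stage, whose mix of stages differed between the groups. After thinning, Thbs1 was detected in 6.37% and 6.36% of these WT cells, 0.263% and 0.267% of vehicle cells and 6.17% and 5.46% of IACS-70654 cells. Vehicle libraries thus stood far under both other groups, and the treated share did not differ from WT by the test (log2 difference -0.14, edgeR adjusted p = 0.26). The unthinned shares were 18.0% and 18.3% in WT and 22.02% and 21.51% in IACS-70654, which reversed the sign and was called as higher (0.26, edgeR adjusted p = 9.176e-05). T and NK cells had a Thbs1 UMI in 0 of 131 and 0 of 90 WT cells, which allows shares of up to 2.29% and 3.33%, and in 0 of 34 and 0 of 38 treated cells, which allows up to 8.82% and 7.89%. Ighd B cells of IACS-70654 replicate 2 had one in 2 of 74 cells (2.70%) and those of WT replicate 2 in 1 of 122 (0.820%).

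Among neutrophils of all stages, those with at least 2 UMIs over 10 mitotic genes were 12.7% and 11.9% in WT and 12.1% and 11.5% in IACS-70654, with vehicle at 11.4% and 12.4%. A second rule took neutrophils past the pro/preNeu stage with at least 2 UMIs over Ifit1, Ifit2, Ifit3, Isg15 and Rsad2, genes induced by interferon. These were 2.12% and 2.49% in WT and 2.48% and 3.13% in IACS-70654, with vehicle above both at 4.15% and 3.79%. Neither difference passed the test (log2 -0.07 and 0.30, edgeR adjusted p = 0.33 and 0.13), although both did without thinning, where the mitotic share was 22.9% and 23.1% against 27.1% and 26.6%.

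Among B-lineage cells, 18.2% and 16.6% had an Ighd UMI in WT and 36.2% and 33.3% in IACS-70654, with vehicle at 7.097% and 10.29%. The share was higher in treated marrow (log2 difference 0.98, edgeR adjusted p = 0.00135), with 47 and 99 cells behind the treated values, and the call was lost without IACS-70654 replicate 1 (0.94) or replicate 2 (1.05). Unthinned shares were 36.2% and 31.8% in WT and 65.96% and 73.74% in IACS-70654, and mature neutrophils met the rule in at most 0.328% of cells.

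Genes of the stefin A cluster on chromosome 16 rose at each neutrophil stage. The 110 bases upstream of the start of 5 of its genes are shown because these genes rose together and their promoters share a run of letters. Capitals mark ACCTTTAAAACC, the longest run common to the 5, found after their rise was known. Sequences are from RefSeq, assembly GRCm38.p6, on the strand of the gene, at chr16:36367571-36367680 (minus) for Cstdc5, chr16:36184102-36184211 (plus) for Cstdc4, chr16:36156701-36156810 (plus) for Stfa2l1, chr16:36408364-36408473 (minus) for Stfa2 and chr16:36455393-36455502 (minus) for Stfa3.
Cstdc5: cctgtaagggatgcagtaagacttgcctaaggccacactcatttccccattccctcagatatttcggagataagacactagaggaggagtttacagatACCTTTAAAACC
Cstdc4: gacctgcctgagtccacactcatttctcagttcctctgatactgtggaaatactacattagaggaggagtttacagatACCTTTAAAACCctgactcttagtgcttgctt
Stfa2l1: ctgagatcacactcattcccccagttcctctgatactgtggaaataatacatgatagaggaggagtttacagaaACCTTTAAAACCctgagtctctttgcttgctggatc
Stfa2: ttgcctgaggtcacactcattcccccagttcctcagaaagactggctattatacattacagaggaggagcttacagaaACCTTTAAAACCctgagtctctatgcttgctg
Stfa3: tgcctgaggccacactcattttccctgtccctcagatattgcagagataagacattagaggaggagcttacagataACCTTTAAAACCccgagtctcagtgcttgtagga
The run begins 12, 32, 36, 32 and 34 bases before the gene start in the order printed. On both strands it was present in 11 of 32851 promoters searched over 250 bases (0.0335%), and 10 of the 11 lie on chromosome 16. Besides the 5 genes the holders are Csta3, Cstdc3, Stfa1, Gm39539, Gm7260 and Cdc42ep4. Cstdc6 is not among them, although it too rose, by 3.46 in pro/preNeu, 4.75 in immature and 1.97 in mature neutrophils. The run was chosen as common to copies of the same family, so its rarity and its place on chromosome 16 are not independent of that choice. The match describes letters only and says nothing about a factor that may bind there.

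In mature neutrophils 2266 of 9783 tested genes were called (23.2%), at adjusted p under 0.01 in edgeR's quasi-likelihood test and a log2 change over 0.5 in size. Of these, 1088 were higher (11.1%) and 1178 lower (12.0%) in IACS-70654. The 2 groups filled this class from different clusters of cells. WT cells lay in neutrophil clusters 0 (60.2%) and 1 (39.1%), and 94.95% of treated cells lay in cluster 2. Values are therefore given again for several genes over all neutrophils except pro/preNeu. That set depends on which clusters were named pro/preNeu but not on the division into later stages. Its mix of stages differed between the groups. Mature neutrophils were 1643 of 2468 and 1531 of 2258 of its WT cells, but 1428 of 2925 and 1763 of 3686 of its treated cells. A gene not called over this set is therefore not shown to be unchanged in mature neutrophils. The set leaves out the unnamed Il1b-led cluster of 63 and 72 WT and 290 and 354 treated cells. Cxcr2 stood at 1744 and 1792 CPM in the WT cells of that cluster and at 1609 and 1656 CPM in its treated cells. Of the 50 named calls in mature neutrophils 9 were lost over all neutrophils except pro/preNeu. Of the 2266 called genes 1525 were called there in the same direction.

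Stefin genes rose at all stages, and none of them was among the genes used to build the clusters. In mature neutrophils 8 of the 10 tested genes of the stefin list rose and none fell, with a median log2 change of 1.45 against 0.03 over all genes, where 11.1% rose. Cstdc5 stood at 1494 and 1455 CPM in WT, 2697 and 2535 CPM in vehicle, and 7143 and 7025 CPM in IACS-70654. Its treated level lay above vehicle as well as above WT (log2 change from WT 2.21 ± 0.02 SE, edgeR adjusted p = 9.087e-37). Stfa3 was 384 and 343 CPM in WT, 409 and 444 CPM in vehicle, and 2478 and 2377 CPM in IACS-70654, so that vehicle stayed near WT and treated cells were 6.43-fold higher. Stfa2 rose from 405 and 396 CPM to 2734 and 2703 CPM, with vehicle at 948 and 886 CPM. Cstdc4 and Stfa2l1, with log2 changes of 1.10 and 1.21, had the smallest rises among these copies.

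In immature neutrophils 1583 of 9653 genes were called (16.4%), 868 higher (8.99%) and 715 lower (7.41%), and 7 of 9 stefin genes rose with a median log2 change of 4.75. Stfa3 was 64.5 and 89.7 CPM in WT, 204 and 229 CPM in vehicle, and 3179 and 2982 CPM in IACS-70654 (log2 change 5.31 ± 0.05 SE, edgeR adjusted p = 1.795e-54). Cstdc5 was 327 and 317 CPM in WT, 1042 and 1150 CPM in vehicle, and 10114 and 10284 CPM in IACS-70654, a 31.2-fold rise. Treated libraries lay far above the other groups for each of these copies. In this class 89.4% of treated cells fell in neutrophil cluster 6, led by Stfa3, while WT cells fell in clusters 3 (57.2%) and 7 (39.2%). A further 829 and 1082 treated neutrophils, 17.0% and 17.6% of kept cells, formed a cluster also led by Stfa3 that could not be given a stage, against 20 and 7 WT cells and 22 and 25 vehicle cells.

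In pro/preNeu 1659 of 11749 genes were called (14.1%), 842 higher (7.17%) and 817 lower (6.95%). Of 10 stefin-list genes 8 rose, and Cst7, which encodes cystatin F, fell by 1.26 on the log2 scale. Cstdc5 was 193 and 151 CPM in WT, 446 and 442 CPM in vehicle, and 3461 and 4029 CPM in IACS-70654, a 21.1-fold rise. Over all neutrophils except pro/preNeu the log2 changes were 3.85 for Stfa3 and 3.26 for Cstdc5, both called. These genes are copies within 1 family, so how reads were split among Cstdc4, Cstdc5, Cstdc6, Stfa1, Stfa2, Stfa2l1 and Stfa3 is uncertain.

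**Figure D2:**
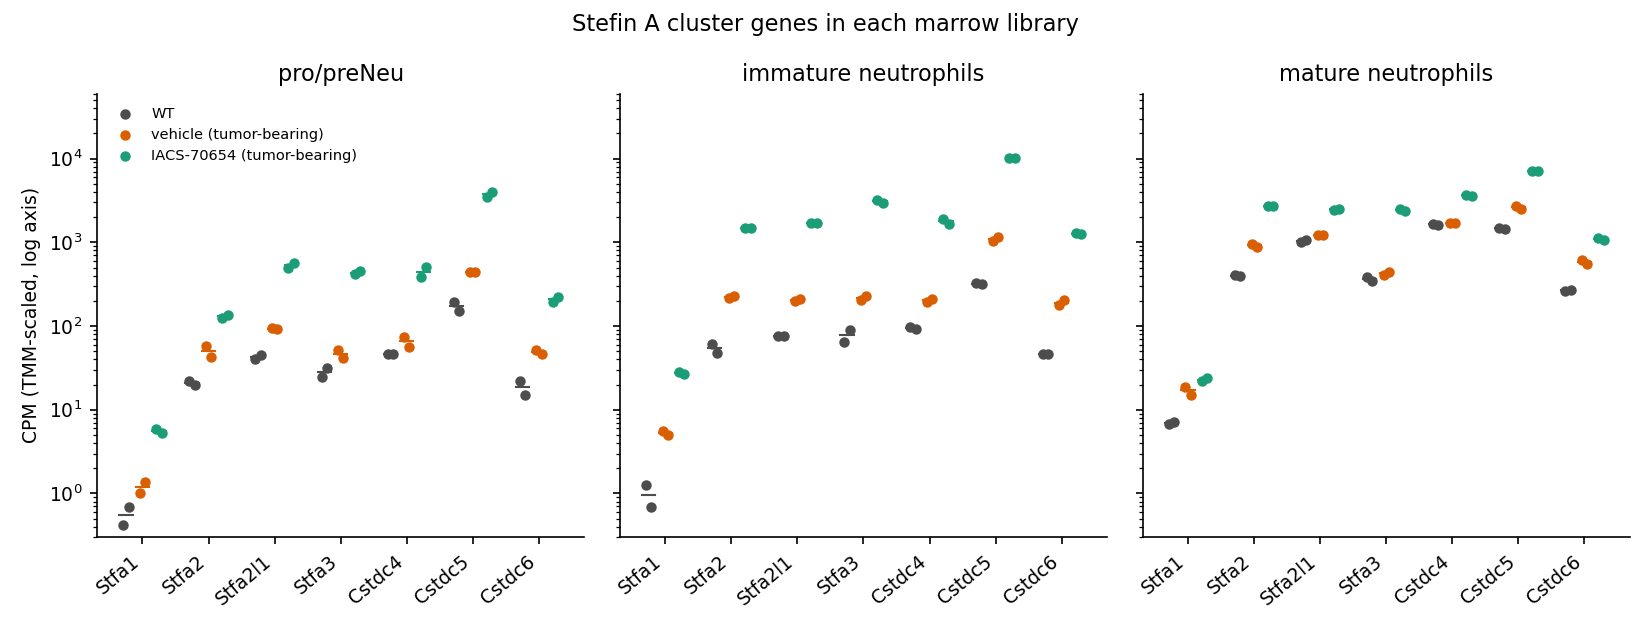
CPM (TMM-scaled, log axis) of 7 stefin A cluster genes in each library for pro/preNeu, immature and mature neutrophils, points standing for libraries and bars for group means. Treated libraries are the highest for each gene at each stage, and vehicle libraries lie between WT and IACS-70654 or near WT, as for Stfa3 in mature cells at 409 and 444 CPM.

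Among other genes of mature neutrophils the place of vehicle varied. Wfdc17, a secreted protein with a whey acidic protein domain, was 318 and 279 CPM in WT, 4007 and 4064 CPM in vehicle, and 5926 and 6484 CPM in IACS-70654 (log2 change 4.32 ± 0.04 SE, edgeR adjusted p = 6.715e-37). Ifitm1, an interferon-induced membrane protein, was 461 and 487 CPM in WT, 2840 and 2683 CPM in vehicle, and 6727 and 6978 CPM in IACS-70654 (3.80). Both were far above WT in both tumor-bearing groups and highest after treatment. Steap4, a metalloreductase, was 46.2 and 41.7 CPM in WT, 243 and 231 CPM in vehicle, and 220 and 224 CPM in IACS-70654 (2.28). Its level was alike in vehicle and treated libraries, as was that of Ifitm2, at 1179 and 1193 CPM in WT, 3347 and 3191 CPM in vehicle and 3262 and 3341 CPM in IACS-70654 (1.42). Il1b was 269 and 242 CPM in WT, 491 and 492 CPM in vehicle, and 522 and 532 CPM in IACS-70654, a rise of 0.99 over WT. These levels leave out the unnamed Il1b-led cluster, which was 1.38% and 1.64% of WT but 5.96% and 5.75% of treated cells. Il1b in that cluster was 3991 and 4243 CPM in WT and 3540 and 3452 CPM in IACS-70654. The rise with those cells included was not tested. Cd14, the co-receptor for lipopolysaccharide, rose from 16.2 and 12.3 CPM to 70.9 and 70.2 CPM, with vehicle at 43.1 and 40.6 CPM.

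Tcf7l2, a transcription factor of the Wnt pathway, was 4.34 and 8.96 CPM in WT, 5.00 and 5.53 CPM in vehicle, and 64.1 and 64.2 CPM in IACS-70654 (log2 change 3.23 ± 0.16 SE, edgeR adjusted p = 3.296e-17). Dock4, an exchange factor for small GTPases, was 14.0 and 11.7 CPM in WT, 13.8 and 13.2 CPM in vehicle, and 65.1 and 70.2 CPM in IACS-70654 (2.34). Zeb2, a zinc-finger repressor, was 192 and 199 CPM in WT, 189 and 193 CPM in vehicle, and 443 and 465 CPM in IACS-70654 (1.17). For these genes the vehicle and WT values were close and only the treated libraries were high. Tcf7l2 and Dock4 could take part in building the clusters, and over all neutrophils except pro/preNeu their log2 changes were 3.45 and 1.95.

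Among the falls, Ctnna3, an alpha-catenin, was 64.0 and 68.4 CPM in WT, 19.6 and 18.0 CPM in vehicle, and 4.61 and 6.52 CPM in IACS-70654 (log2 change -3.59 ± 0.14 SE, edgeR adjusted p = 1.357e-19). Aoah, which deacylates lipopolysaccharide, was 93.8 and 105 CPM in WT, 39.7 and 39.5 CPM in vehicle, and 16.2 and 13.3 CPM in IACS-70654 (-2.82). Slc7a11, the cystine transporter, was 231 and 228 CPM in WT, 109 and 105 CPM in vehicle, and 51.0 and 42.5 CPM in IACS-70654 (-2.36). In these genes vehicle lay between WT and treated. Tbxas1, thromboxane synthase, and Scrg1 had the same order, with log2 changes of -2.23 and -2.78. Over all neutrophils except pro/preNeu the fall of Ctnna3 was -3.23.

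Ly6c2, a surface protein of myeloid cells, was 316 and 299 CPM in WT, 281 and 282 CPM in vehicle, and 44.0 and 45.3 CPM in IACS-70654 (log2 change -2.84 ± 0.06 SE, edgeR adjusted p = 2.969e-27). Its near copy Ly6c1 fell by 2.90, and reads may be split between them. Ly6g, the surface marker by which mouse neutrophils are gated, was 1465 and 1503 CPM in WT, 1853 and 1932 CPM in vehicle, and 595 and 580 CPM in IACS-70654 (-1.39 ± 0.03 SE, edgeR adjusted p = 2.629e-28). Treated cells lay under WT while vehicle lay at or above it. The fall of Ly6g was also called in immature neutrophils, from 2311 and 2375 CPM to 1242 and 1167 CPM (-0.98), and in pro/preNeu, from 600 and 551 CPM to 115 and 115 CPM (-2.37). Vehicle stood at 3379 and 3200 CPM and at 796 and 891 CPM in these stages. Over all neutrophils except pro/preNeu the change was -0.75.

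Cd84, a SLAM-family receptor used as a marker of myeloid-derived suppressor cells, was 715 and 724 CPM in WT, 594 and 583 CPM in vehicle, and 406 and 409 CPM in IACS-70654 (log2 change -0.87). Thbs1 was 67.3 and 59.2 CPM in WT, 2.98 and 2.38 CPM in vehicle, and 22.3 and 20.1 CPM in IACS-70654 (-1.64 ± 0.11 SE, edgeR adjusted p = 3.956e-14). Treated libraries lay between vehicle and WT for Thbs1 in this class. In immature neutrophils, however, Thbs1 was 102 and 109 CPM in WT, 2.92 and 5.16 CPM in vehicle, and 111 and 107 CPM in IACS-70654, a change of 0.02 that was not called, and over all neutrophils except pro/preNeu the change was -0.24 and was not called. Csf3r, the receptor of G-CSF, was 1094 and 1141 CPM in WT, 1488 and 1486 CPM in vehicle, and 1038 and 1072 CPM in IACS-70654, which was not called (-0.13). The unnamed Il1b-led cluster, left out here, was a larger share of treated than of WT cells. Csf3r in that cluster was 3560 and 4956 CPM in WT and 3236 and 3254 CPM in IACS-70654. The change of Csf3r with those cells included was not tested. Il1r2, the decoy receptor for IL-1, and Ccr1 lay just past the threshold at 0.52 and -0.52, and Il1r2 was not called over all neutrophils except pro/preNeu (0.30). The targets of the drug, Crebbp and Ep300, changed by -0.19 and -0.22 and were not called.

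**Figure D3:**
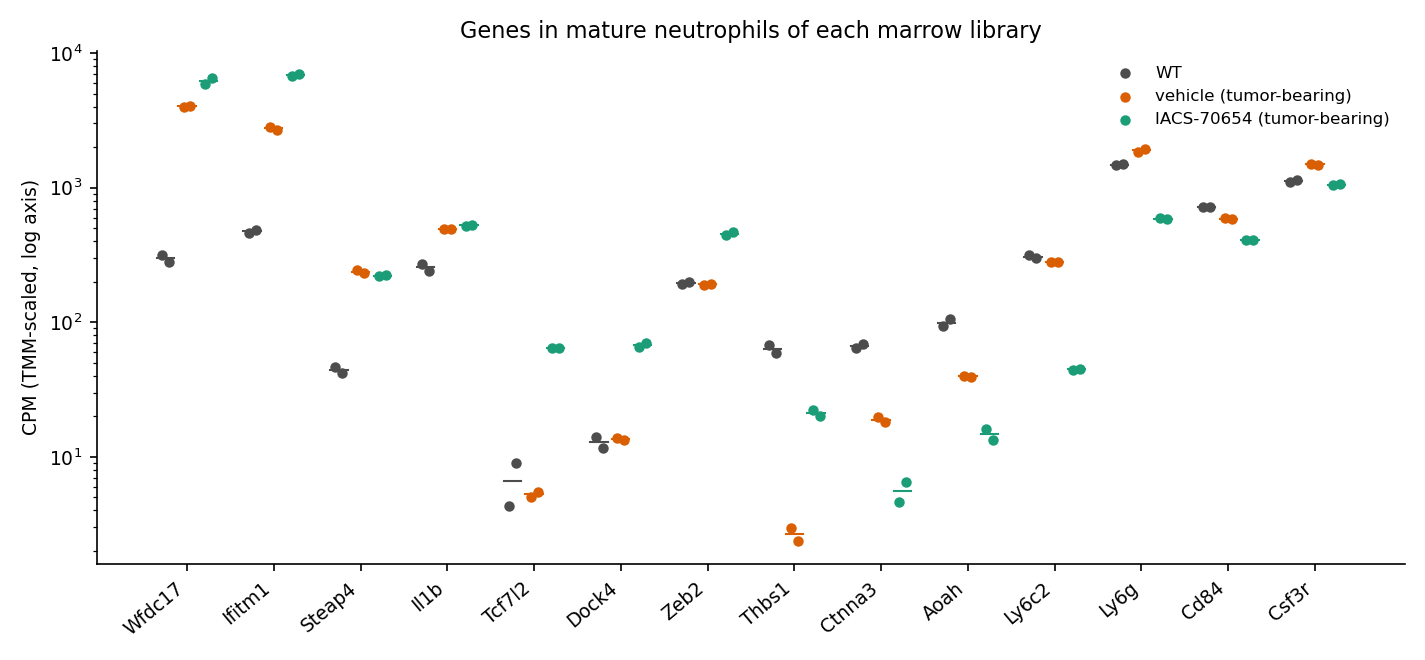
CPM (TMM-scaled, log axis) of 14 genes in mature neutrophils of each library, with points for libraries and bars for group means of WT, vehicle and IACS-70654. Wfdc17 and Ifitm1 are high in both tumor-bearing groups, Tcf7l2, Dock4 and Zeb2 are high in treated libraries only, and Ly6c2 and Ly6g are low in treated libraries only.

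Granule genes are given by stage, and differences between stages were not tested. Azurophil granule genes encode the serine proteases and myeloperoxidase of early granules, and several of them, with several secondary granule genes, were also stage markers that named the clusters, so their values are a description of the classes as named. In pro/preNeu 8 of the 9 tested azurophil genes rose and 1 fell (median log2 change 1.09 against 0.00407 over all genes), where 7.17% of all genes rose and 6.95% fell. The groups filled this class unequally from its clusters. Neutrophil clusters 8 and 9, whose leading genes include Elane, Prtn3, Ctsg and Mpo, held 28.1% and 22.98% of treated cells against 13.4% and 10.8% of WT cells, and cluster 5 held 24.9% against 45.4%. The part of this shift in the granule values was not tested. Elane, neutrophil elastase, was 2143 and 3035 CPM in WT, 2092 and 1705 CPM in vehicle, and 6276 and 6230 CPM in IACS-70654. Prtn3, proteinase 3, was 2554 and 3461 CPM in WT, 3877 and 3280 CPM in vehicle, and 7027 and 7186 CPM in IACS-70654. Both treated libraries lay above all others for these proteases, with log2 changes of 1.227 and 1.195. Mpo rose by 0.98 and Ctsg by 1.35. Ctsc, a protease that activates the granule serine proteases, rose by 1.46, from a low level of 7.67 and 6.47 CPM to 20.2 and 20.1 CPM. Cd63, a granule membrane tetraspanin, was the gene that fell (-0.64).

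In immature neutrophils 4 of 9 azurophil genes rose, among them Ms4a3 (1.33), and 2 fell, Cd63 (-0.66) and Srgn (-0.70), where 8.99% of all genes rose and 7.41% fell. The change of Srgn reversed to 0.14 with the unnamed neutrophil clusters placed by their best list. In mature neutrophils 1 rose, Ctsc (1.38), and 5 fell, among them Elane (-0.67), Mpo (-0.65) and Cd63 (-1.77), where 11.1% of all genes rose and 12.0% fell. Elane was low in this class, at 110 and 111 CPM in WT and 69.3 and 74.2 CPM in IACS-70654. Its WT level in pro/preNeu was 2143 and 3035 CPM. Mpo, Ctsg and Ms4a3 were also far under their pro/preNeu levels, and the latter fell by 0.63 and 0.60. The part of RNA from precursors and of depth in these falls was not tested. The change of Elane over all neutrophils except pro/preNeu was -0.31 and was not called.

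Among secondary and tertiary granule genes, which encode lactoferrin, cathelicidin and gelatinases, some fell at each stage and no rise was called. The counts of falls were 12 of 16 in pro/preNeu, 8 of 16 in immature and 10 of 16 in mature neutrophils, where 6.95%, 7.41% and 12.0% of all genes fell, with median log2 changes of -0.69, -0.40 and -0.88. The pro/preNeu count comes with the cluster shift given above. In immature neutrophils the 8 not called went both ways. Chil3, Lcn2, Hp, Cd177 and Camp changed by 0.45, 0.31, 0.28, 0.14 and 0.11, and Ngp, Ltf and Cybb by -0.27, -0.14 and -0.06. In pro/preNeu, Camp was 45190 and 43010 CPM in WT and 19550 and 19550 CPM in IACS-70654, and Ngp was 28080 and 25440 CPM in WT, 29270 and 31160 CPM in vehicle, and 9825 and 9923 CPM in IACS-70654. Ltf, lactoferrin, was 4830 and 4137 CPM in WT, 5666 and 6020 CPM in vehicle, and 1819 and 1764 CPM in IACS-70654. For Ngp and Ltf the treated libraries were low and vehicle stood above WT, with log2 changes of -1.48 and -1.37. Olfm4 and Padi4 fell at all 3 stages, by -0.99, -0.74 and -1.75 and by -1.44, -0.98 and -1.41 in order of maturity. In mature neutrophils Camp fell from 5179 and 4878 CPM to 1652 and 1820 CPM and Ngp from 6485 and 6202 CPM to 2938 and 2749 CPM. Both falls depended on how cells were classed. Over all neutrophils except pro/preNeu Camp was -0.13 and Ngp -0.32, neither called, and clusters built after centring each library turned Ngp to 0.26.

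**Figure D4:**
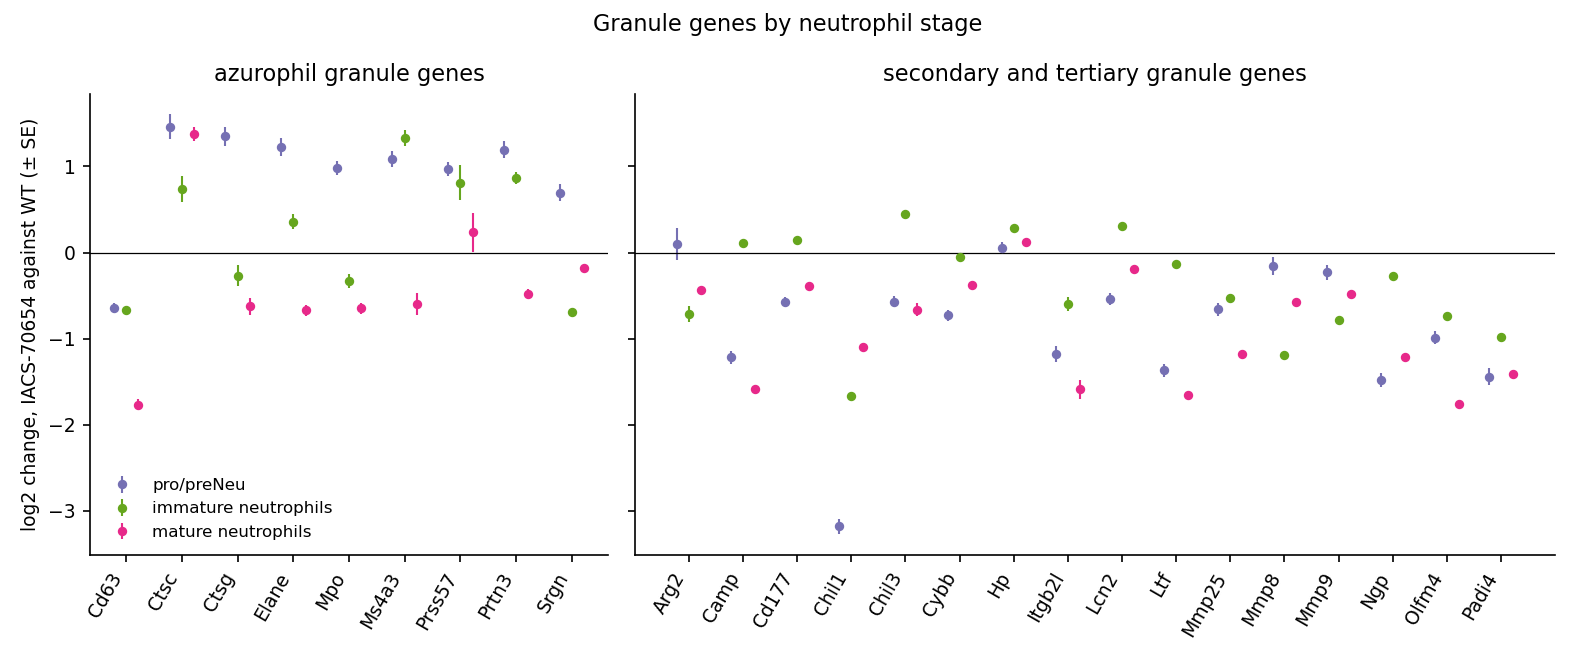
Log2 change of IACS-70654 against WT with SE, from the edgeR fit of each stage, for azurophil and for secondary and tertiary granule genes. Elane lies above 0 in pro/preNeu (1.23) and below 0 in mature neutrophils (-0.67), while Ctsc lies above 0 in both (1.46 and 1.38). The change of Elane over all neutrophils except pro/preNeu was -0.31 and was not called. Ltf, a secondary granule gene, lies below 0 in pro/preNeu (-1.37).

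Other changes in pro/preNeu included falls of Orm1, an acute-phase plasma protein, from 228 and 207 CPM to 21.9 and 19.3 CPM with vehicle at 300.4 and 325.0 CPM (log2 change -3.46 ± 0.07 SE, edgeR adjusted p = 3.106e-19), and of Chil1, a chitinase-like lectin, from 157 and 130 CPM to 15.9 and 16.7 CPM with vehicle at 178 and 183 CPM (-3.18). Both were low in treated libraries only. Zmpste24, which processes prelamin A, fell by 2.30 on the log2 scale, and Fpr2, a formyl peptide receptor, by 1.71. The peroxidase Prdx1 rose from 69.6 and 89.8 CPM to 218 and 221 CPM (1.41), and the chaperone Calr from 239 and 299 CPM to 609 and 581 CPM (1.10). In immature neutrophils Tmem45a2 fell from 140 and 122 CPM to 3.95 and 4.43 CPM, with vehicle at 50.5 and 46.8 CPM (-4.97), and Orm1 fell by 1.73. Of 54 G2/M genes 6 were lower and none higher in pro/preNeu, where 6.95% of all genes were lower, and 1 of 46 S-phase genes was higher against 7.17% of all genes, and Mki67, a marker of dividing cells, was not called (-0.22).

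Of 38 tested interferon-response genes 13 were higher and 1 lower in mature neutrophils (median log2 change 0.39), where 11.1% of all genes were higher and 12.0% lower. The counts were 5 and 3 of 31 in immature cells, against 8.99% and 7.41% of all genes, and 4 and 2 of 35 in pro/preNeu, against 7.17% and 6.95%. Ifi27l2a was 574 and 563 CPM in WT, 1062 and 1028 CPM in vehicle, and 1017 and 1019 CPM in IACS-70654 (0.79, and 0.47 and not called in clusters built after centring each library). Samd9l, also interferon-induced, went the other way and fell at all 3 stages (-0.72 in mature cells). The MDSC signature is a gene list for myeloid-derived suppressor cells that was published before the study. The study scored it on these same samples, so the counts here are not independent of that scoring. The list had 24 genes higher and 10 lower of 96 in mature neutrophils, and 13 higher and 20 lower of 96 in immature ones. Its medians were 0.05 and -0.09, and the counts are to be read against the same shares of all genes.

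Genes of the mitochondrial genome rose in 7 of 13 cases in mature, 12 of 13 in immature and 1 of 13 in pro/preNeu cells, where 11.1%, 8.99% and 7.17% of all genes rose. In immature neutrophils mt-Atp6, an ATP synthase subunit, was 1073 and 1111 CPM in WT, 1535 and 1551 CPM in vehicle, and 2437 and 2481 CPM in IACS-70654 (log2 change 1.153). Treated libraries were highest and vehicle lay between. Of 60 nuclear genes of oxidative phosphorylation 11 were higher in mature, 8 in immature and 0 in pro/preNeu cells, to be read against the same shares. Of 20 glycolysis genes 5 fell in mature neutrophils, among them the glucose transporter Slc2a3 (-0.60, and -0.38 and not called over all neutrophils except pro/preNeu), where 12.0% of all genes fell. Calprotectin subunit S100a9 was 147000 and 147900 CPM in WT and 100200 and 100000 CPM in IACS-70654 (-0.61, and -0.37 and not called over all neutrophils except pro/preNeu), while its partner S100a8 changed by -0.03 and was not called. Csf2rb, the common beta chain of the IL-3, IL-5 and GM-CSF receptors, rose at each stage, by 0.82, 0.83 and 0.77 from mature to pro/preNeu. Of genes for MHC class I and peptide loading 0 of 22 were called in mature neutrophils, where 23.2% of all genes were, 2 of 21 were higher in immature neutrophils, against 8.99%, and 2 were higher and 4 lower of 22 in pro/preNeu, against 7.17% and 6.95%.

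In monocytes 620 of 11547 genes were called (5.37%), 244 higher (2.11%) and 376 lower (3.26%). Here both groups filled the class alike from 2 clusters, 67.7% and 32.3% in WT and 67.3% and 32.7% in IACS-70654. At a finer resolution a small monocyte cluster led by Adgre4, Ace and Apoc2 held 12 and 9 cells of the WT libraries but 2 and 3 of the treated ones, with vehicle at 11 and 9. MHC class II genes, which present peptides to CD4+ T cells, fell in 7 of 9 tested cases and rose in 1 (median log2 change -1.33 against 0.00115 over all genes). Conventional dendritic cells did not form a class of their own here. Whether some of them lay among the monocytes and took part in these values was not tested. Cd74, the invariant chain, was 314 and 468 CPM in WT, 338 and 230 CPM in vehicle, and 121 and 109 CPM in IACS-70654 (-1.79 ± 0.12 SE, edgeR adjusted p = 1.884e-09). H2-Aa was 168 and 222 CPM in WT, 177 and 97.3 CPM in vehicle, and 69.7 and 59.7 CPM in IACS-70654 (-1.62). Treated libraries lay under WT and vehicle, and the vehicle pair was itself wide. The class II transactivator Ciita fell by 1.06, H2-Oa, an inhibitor of peptide exchange, rose by 2.11 at under 10 CPM in all libraries of the comparison, and H2-DMa was not called (-0.18). Of 22 MHC class I and peptide loading genes only 1 was called, a fall.

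Other monocyte genes fell with vehicle near WT. S100a4, a calcium-binding protein of motile cells, was 1532 and 1467 CPM in WT, 1208 and 1210 CPM in vehicle, and 553 and 556 CPM in IACS-70654 (log2 change -1.45 ± 0.03 SE, edgeR adjusted p = 4.896e-16). Fn1, fibronectin, was 1177 and 1149 CPM in WT, 1055 and 1097 CPM in vehicle, and 521 and 526 CPM in IACS-70654 (-1.17). Klrb1f, a lectin-like receptor, was 69.4 and 64.6 CPM in WT, 63.4 and 67.7 CPM in vehicle, and 6.81 and 6.99 CPM in IACS-70654 (-3.29). In all 3 genes treated libraries were low and did not overlap the others. The phosphatase Ptprd fell by 3.38, apolipoprotein Apoc2, a leading gene of the small cluster with fewer treated cells, by 2.25 (the part of those cells in this fall was not tested), transferrin (Trf) by 2.20, coagulation factor F10 by 1.62 and the scavenger receptor Msr1 by 1.53. Ccr2, the receptor by which monocytes leave marrow, was 860 and 865 CPM in WT, 919 and 900 CPM in vehicle, and 630 and 598 CPM in IACS-70654 (-0.51), and it was among 6 of 19 trafficking genes that fell, where 3.26% of all genes did. Ly6c2 and Ly6c1 fell by 0.93 and 0.92.

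Chn2, a GTPase-activating protein for Rac, was 28.6 and 30.1 CPM in WT, 25.0 and 27.8 CPM in vehicle, and 134 and 133 CPM in IACS-70654 monocytes (log2 change 2.16 ± 0.08 SE, edgeR adjusted p = 1.264e-12). Marcks, an actin-binding substrate of protein kinase C, was 67.9 and 64.6 CPM in WT, 62.8 and 50.5 CPM in vehicle, and 175 and 175 CPM in IACS-70654 (1.38). Both were high in treated libraries only. Ifi27 rose by 1.74, the lipid receptor Trem2 by 1.14, the kinase Pim1 by 1.09 and the chemokine Ccl3 by 0.95. S100a8 rose from 5342 and 6097 CPM to 11170 and 13010 CPM (1.06), but it is also abundant in free RNA of neutrophils. Of 10 neutrophil genes used to watch for such RNA 3 were called, all higher, and their summed share of monocyte UMIs was 1.68% and 1.83% in WT and 2.53% and 3.08% in IACS-70654, all 10 being detected in each library. Camp, Ngp and Retnlg changed by 0.16, 0.01 and 0.04 in monocytes and were not called. The part of that RNA in the change of S100a8 was not tested.

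**Figure D5:**
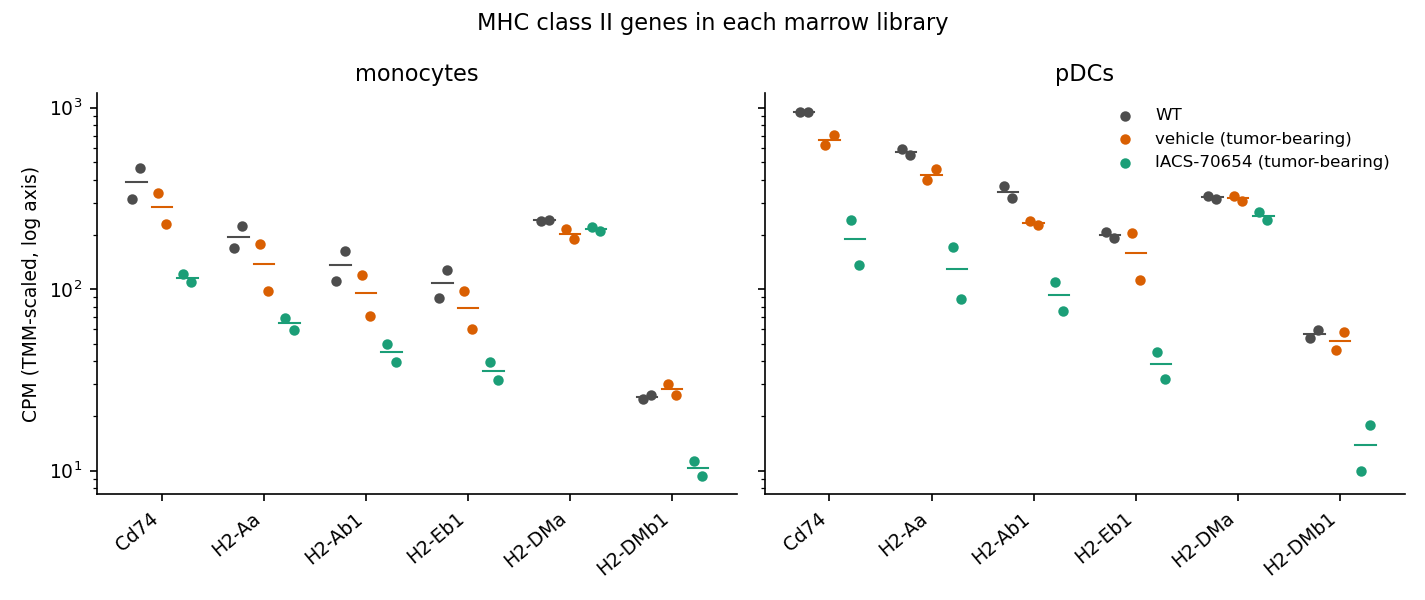
CPM (TMM-scaled, log axis) of 6 MHC class II genes in monocytes and pDCs of each library, with points for libraries and bars for group means. Cd74 falls from 314 and 468 CPM in WT to 121 and 109 CPM in treated monocytes and from 951 and 944 CPM to 242 and 137 CPM in treated pDCs, while H2-DMa stays near WT in both.

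The change of 1543 of 12088 genes differed between mature neutrophils and monocytes when the difference itself was tested (12.8%, edgeR quasi-likelihood interaction test with library as a block), the change in neutrophils being the higher for 774 (6.40%) and the lower for 769 (6.36%). In simulated counts this test recovered only 7% of differences of 1 on the log2 scale and 74% of those of 2. That simulation gave every gene the same spread, which was not taken from these data, and included genes with low counts. Its values are therefore not the recovery of this test on these data. The genes not called are in any case not shown to change alike in both classes. Apoc2 rose by 1.71 in mature neutrophils and fell by 2.25 in monocytes, and Elane and Mpo did the reverse, rising by 1.31 and 0.71 in monocytes. The fall of Elane was not called over all neutrophils except pro/preNeu (-0.31).

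In pDCs 296 of 8711 genes were called (3.40%), 104 higher (1.19%) and 192 lower (2.20%), from 124 and 129 WT and 79 and 91 treated cells. The count fell to 65 without WT replicate 2, to 169 without WT replicate 1 and to 147 without IACS-70654 replicate 2. Of 27 named calls 10, 3 and 8 were lost in these settings in the same order, and 9 with DESeq2. MHC class II genes fell in 5 of 9 tested cases (median log2 change -1.89). Cd74 was 951 and 944 CPM in WT, 624 and 708 CPM in vehicle, and 242 and 137 CPM in IACS-70654 (-2.32 ± 0.15 SE, edgeR adjusted p = 1.203e-11), and H2-Eb1 was 206 and 191 CPM in WT, 203 and 113 CPM in vehicle, and 45.3 and 32.1 CPM in IACS-70654 (-2.35). Treated libraries lay lowest for both. Chn2 rose here too, from 12.2 and 17.1 CPM to 125 and 106 CPM with vehicle at 18.8 and 6.63 CPM (2.97), and Pim1 rose by 1.73. Aif1, an actin-bundling protein, fell from 71.0 and 77.1 CPM to 11.3 and 8.32 CPM with vehicle at 64.8 and 97.8 CPM (-2.89). Of 19 genes of pDC function 5 fell and none rose (median log2 change -0.43, with 2.20% of all genes lower), and the 9 pDC markers summed to 1.18% and 1.12% of UMIs in WT and 0.859% and 0.777% in IACS-70654, with vehicle at 1.14% and 1.08%. Bst2, a tetherin, fell by 0.59, while Tcf4, their master regulator, changed by -0.34, Irf8 by -0.35 and Siglech by -0.28, none called. Of the neutrophil RNA list 8 of 10 genes rose in pDCs, all 10 were detected in each library, and their share of UMIs was 2.33% and 1.58% in WT against 3.14% and 4.17% in IACS-70654.

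T and NK cells, with 133 and 92 WT and 34 and 38 treated cells, gave 79 called of 5279 genes (1.50%), 37 higher (0.701%) and 42 lower (0.796%), and 131 without IACS-70654 replicate 2. Effector genes fell in 7 of 27 tested cases and none rose. Gzma, a cytotoxic granule protease, was 2772 and 3017 CPM in WT, 1236 and 806 CPM in vehicle, and 644 and 1217 CPM in IACS-70654 (log2 change -1.55 ± 0.17 SE, edgeR adjusted p = 4.573e-06), whereas the chemokine Ccl5 was not called (0.22). Ikzf2, which encodes the transcription factor Helios, rose from 413 and 325 CPM to 1288 and 1082 CPM with vehicle at 777 and 243 CPM (1.75), and Pde7b rose by 2.06. Kif11 and Prc1, which act in mitosis, were lower (-2.94 and -2.79), and Stmn1 fell from 370.0 and 462 CPM to 41.0 and 104 CPM with vehicle at 404 and 216 CPM. Of 18 named calls in this class 10 were lost without IACS-70654 replicate 1, 8 without WT replicate 1 and 13 with all 6 libraries in the fit, Kif11 and Prc1 each time among them, and 9 of 15 were lost with DESeq2, Gzma among them. From the neutrophil RNA list, all 10 detected, Ngp fell and Retnlg rose (-1.21 and 1.56), the change of Ngp turning to 0.526 and not called with the 5% highest doublet scores left out and to -0.50 and not called without WT replicate 1, with a summed share of 3.72% and 2.04% in WT and 3.25% and 3.66% in IACS-70654.

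B precursors were few in treated marrow. The library with 17 cells was left out and a single treated library of 25 cells entered the fit, its spread assumed to be that of WT. It called 352 of 10964 genes (3.21%), 207 higher (1.89%) and 145 lower (1.32%). The count was 2 without a filter on low counts and 295 with the library of 17 cells included, of which 243 were among the 352 in the same direction. Of 32 named calls 7 were lost with that library and all 32 without the filter, Bach2 and Cd74 among the latter. The neutrophil RNA list rose in 9 of 10 genes and took 3.097% and 3.97% of UMIs in WT and 8.68% in the treated library, all 10 being detected. The groups also filled this class from different clusters, with 71.4% of WT cells in cluster 9, among whose leading genes are Bach2 and Vpreb3, and 64.3% of treated cells, over both treated libraries, in cluster 12, which Vpreb3 also marks. Bach2, a repressor of plasma cell fate, was 3150 and 3253 CPM in WT, 3541 and 3195 CPM in vehicle, and 1379 CPM in the treated library (log2 change -1.14 ± 0.12 SE, edgeR adjusted p = 2.873e-20). Cd74 was 453 and 472 CPM in WT, 449 and 434 CPM in vehicle, and 71.8 CPM in the treated library (-2.61). In this library both genes were low, and the lineage factors Ebf1 and Pax5 changed by 0.16 and -0.08 and were not called. Among Ighd B cells 1 of 5379 genes was called, Ifitm1, which was higher (0.0186% both overall and in that direction) at 118 and 115 CPM in WT and 781 and 733 CPM in IACS-70654, and 0 were lower (0.00%). Leaving out 1 library gave 5 calls without WT replicate 1, 4 without WT replicate 2, 26 without IACS-70654 replicate 1 and 15 without replicate 2, and clusters at resolution 1 gave 99. With the 5% highest doublet scores left out no gene was called (edgeR, 379 of 4608 at an unadjusted p under 0.05, and 1 by DESeq2). Neutrophil RNA took 4.63% and 3.63% of UMIs in these WT cells and 2.17% and 5.01% in treated ones, and treated mature neutrophils held 6727 and 6978 CPM of Ifitm1 against 461 and 487 CPM in WT, the part of which in this value was not tested. Cd74 in these cells was 6037 and 5884 CPM in WT and 4726 and 4541 CPM in IACS-70654, which was not called (-0.30), and none of 10 MHC class II genes was called.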

How the data were processed

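CD45+ marrow cells were profiled by 10x 3′ RNA-seq. The values used were raw UMI counts per gene and cell as deposited. Per the labels and the study's methods, the authors aligned reads to mm10 with Cell Ranger (7.2.0 in the headers of the count matrices) and pooled cells of 3 mice.

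Of 20697 barcodes in the 4 libraries, cells with 201 to 5999 genes and at most 10% mitochondrial UMIs were kept and 705 removed. Cells of the 6 CD45+ libraries were clustered together (Scanpy 1.11.5, Leiden 0.10.2, 2000 variable genes, 30 components, 20 neighbours, resolution 0.5, then 0.8 within neutrophils). Resolutions of 0.2, 0.3, 0.4, 0.5 and 1 were looked at before 0.5 was taken. Clusters were named from fixed marker lists by at least 3 detected markers. Genes of the described lists that mark no cell type could not steer the clusters. An Il1b-led cluster of low depth stayed unnamed and outside the neutrophil share, at 1.38% and 1.64% of WT, 6.12% and 5.75% of vehicle and 5.96% and 5.75% of IACS-70654 cells. Scrublet marked under 0.5% of cells in 5 of the 6 libraries, too few to use as a filter, and no doublets were removed. Why it marked so few was not tested.

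Counts were summed per library and class, at least 20 cells being required, and tested in R 4.3.3 with edgeR 4.0.16 (glmQLFit, filterByExpr, TMM, Benjamini-Hochberg) and called at an adjusted p below 0.01 with a log2 change above 0.5 in size. CPM are TMM-scaled, and log2 differences are IACS-70654 minus WT. Cell numbers were tested with the logarithm of kept cells as offset. In simulated counts for mature neutrophils, 91% of genes changed by 1 on the log2 scale and 99% of those changed by 2 were recovered. These values were 91% and 100% for monocytes, 67% and 100% for T and NK cells and 60% and 97% for pDCs. For the difference between mature neutrophils and monocytes they were only 7% and 74%. That simulation used the same assumed spread for all genes and a looser limit on counts. The others took the spread of each gene from the data, so the values cannot be set side by side. Replicates differed by more than sampling noise. Precision is limited by 2 libraries per group, and intervals for shares of 0 cover counting error only.

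Genes named were, per class, the called genes with the largest rises and falls (10 each in mature neutrophils and monocytes, 6 each elsewhere, of which some are described) with a mean of at least 50 CPM, no overlap of libraries, no place on a marker list and at most 5 times the level in any other class, plus up to 5 members of each list with the highest level and a few genes of neutrophil biology. Ctsc, Cst7, Stfa1, Padi4, Olfm4, Ciita and H2-Oa were named after their values were seen, as members of their lists. Members and lists were chosen with earlier results of these data known. Alternatives were another normalization, test or filter, all 6 libraries, a replicate block, leaving out each library, a stricter mitochondrial limit, and other classings of cells.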

Additional observations from a re-analysis of the deposited data

Results flagged for a closer look

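For 4 named genes the change from WT to IACS-70654 went opposite ways in mature neutrophils and monocytes, and the difference itself was tested (edgeR quasi-likelihood interaction with library as a block, adjusted over 12088 genes). Apoc2, an apolipoprotein that activates lipoprotein lipase, rose by 1.71 on the log2 scale in mature neutrophils and changed by -2.25 in monocytes, a difference of 3.96 (edgeR adjusted p = 1.41e-123). Elane changed by -0.67 in mature neutrophils and 1.31 in monocytes, a difference of -2.0 (edgeR adjusted p = 5.51e-158). Mpo changed by -0.65 and 0.71, a difference of -1.38 (edgeR adjusted p = 2.23e-80). S100a9 changed by -0.61 and 0.56, a difference of -1.18 (edgeR adjusted p = 2.07e-123). Each direction held in both libraries of both groups. Over all neutrophils except pro/preNeu the falls of Elane and S100a9 were smaller and not called (-0.31 and -0.37). In clusters built after centring each library that of S100a9 was -0.48 and not called, while that of Elane stayed called at -0.73. Elane and Mpo were low in mature neutrophils, at 110 and 111 CPM and at 121 and 117 CPM in WT. RNA of neutrophil genes took 1.68% and 1.83% of monocyte UMIs in WT and 2.53% and 3.08% in IACS-70654, and its part in the monocyte values of Elane, Mpo and S100a9 was not tested. Apoc2 led a small monocyte cluster, found at a finer resolution, of 12 and 9 WT and 2 and 3 treated cells, whose part in its monocyte value was not tested.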

How the results depend on the processing

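Of 227 other settings for 21 comparison results, 187 kept direction and side of the threshold, with counts within 1.5 times. A like count need not hold like genes: with unnamed clusters placed, immature neutrophils had 1611 calls, of which 956 were among the 1583 in the same direction. DESeq2's Wald test called fewer genes: 1392 in mature neutrophils, 804 in immature neutrophils, 1064 in pro/preNeu, 381 in monocytes, 80 in pDCs, 65 in B precursors, 24 in T and NK cells and 677 for the interaction. Without the low-count filter pDCs had 184, B precursors 2 and T and NK cells 181. With all 6 libraries B precursors had 206 and T and NK cells 27. At cluster resolution 1 pDCs had 546 and Ighd B cells 99. Without the cluster led by Cd55 immature neutrophils had 963. With the 5% highest doublet scores left out, edgeR called 0 genes in Ighd B cells, where 379 of 4608 passed an unadjusted p of 0.05 and DESeq2 called 1. The cause of these moves was not tested.

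With TMM-scaled cell numbers the log2 share differences were 0.259 for pDCs (reversed), -0.382 for Ighd B cells, -0.813 for T and NK cells and -0.215 for basophils, none called. Among neutrophils, monocytes and pDCs alone that of neutrophils was 0.0057. Not thinned, the Thbs1 share reversed to 0.26 and was called, the proliferation share to 0.223 and the interferon share was called at 0.927. With 1 UMI more the Ighd share was 1.41 and not called.

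Leaving out each library gave 65 (without WT replicate 2) to 226 genes in pDCs, 4 to 26 in Ighd B cells (5 without WT replicate 1, 4 without WT replicate 2, 26 without IACS-70654 replicate 1 and 15 without replicate 2) and 65 to 131 (without IACS-70654 replicate 2) in T and NK cells. It gave -2.106 to -1.146 for the Ighd B cell share, -1.529 to -1.128 for basophils and 0.9077 to 1.055 for the Ighd share of B-lineage cells. Leaving out a library was not run for the gene count of B precursors.

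Single genes that reversed were Ngp in mature neutrophils (0.26) and Retnlg in immature neutrophils (0.074) in clusters built after centring each library, Retnlg in immature neutrophils also without the Cd55-led cluster (0.70) and with unnamed clusters placed by their best list (1.55), where Srgn (0.14), Ccl6 (1.36), Slfn1 (0.37) and Junb (0.73) reversed too, and Ngp in T and NK cells without likely doublets (0.526). These other classings, the doublet setting and resolution 1 were chosen after seeing the data. Leaving out doublets marked by Scrublet was not run, since it marked too few cells.

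Replicate numbers are not said to pair the libraries, and deviations of same-numbered libraries correlated at -0.0535 to 0.0717. With a replicate block 2367 genes were called in mature neutrophils, 1619 in immature neutrophils, 1716 in pro/preNeu, 774 in monocytes, 297 in pDCs and 152 in T and NK cells, where the block moved the count by over 1.5 times.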
